A study of Homo sapiens with 4 samples.

Results

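The data describe 8 human histone genes, H2BC4, H2AC6, H1-2, H2BC5, H2BC21, H2AZ1, H2AX and H3-3B, in MKN45 cells exposed to bacterial lipopolysaccharide (LPS). They were represented by every probe set that the platform annotation assigns to 1 of these symbols alone. This gave 12 probe sets of 7 genes, out of 54613 probe sets without the array controls. H2AX had 4 such probe sets, H2AZ1 and H2BC5 had 2 each, and H2BC4, H2AC6, H1-2 and H2BC21 had 1 each. H3-3B had 0, because each of its 8 probe sets is also assigned to H3-3A and to a further symbol.

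MKN45 is a gastric epithelial line derived from a human adenocarcinoma. LPS cells received 10 µg/ml of H. pylori LPS, the glycolipid of the outer membrane of that stomach bacterium, for 8 h. Untreated cells received fresh medium at the same time and were harvested at the same 8 h. Total RNA was hybridised to Affymetrix arrays, 2 of LPS cells and 2 of untreated cells, and the series text speaks of 2 independent experiments. All values are log2 levels, and each difference is LPS minus untreated. The number of arrays limits the precision, and errors here cover the spread between these arrays and not between further experiments.

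Histones are the proteins that package DNA into nucleosomes. Most histone genes are transcribed while DNA is replicated, and their mRNAs end in a stem-loop and not in a poly(A) tail. Several genes of the clusters also give polyadenylated transcripts, and replication-independent variants such as H2A.Z and H3.3 are made from ordinary polyadenylated mRNAs in all phases of the cell cycle. Standard Affymetrix labelling starts from the poly(A) tail, so these arrays read mainly the polyadenylated form. A change in tailed mRNA and a change in total histone mRNA cannot be told apart on them.

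The members include an adjacent pair of genes whose differences were the lowest of the set, and the sequence between the pair is shown for that reason. H2BC4 and H2AC6 lie side by side on chromosome 6 and are transcribed away from each other, with 245 bases between their RefSeq starts (chr6:26123927-26124171, GRCh38.p14). The stretch is printed on the plus strand, so it reads towards H2AC6. For comparison, the 250 bases before the starts of 2 further H2B genes and of H2AX are shown on their own strands. These are H2BC5 (chr6:26157871-26158120, plus strand), H2BC21 (chr1:149886683-149886932, minus strand) and H2AX (chr11:119095466-119095715, minus strand), from the same RefSeq table. Capitals mark the octamer ATTTGCAT, the CCAAT box and the TATA box letters TATAAA, searched on both strands. No base was shared by matches of different motifs in these sequences.
H2BC4 and H2AC6: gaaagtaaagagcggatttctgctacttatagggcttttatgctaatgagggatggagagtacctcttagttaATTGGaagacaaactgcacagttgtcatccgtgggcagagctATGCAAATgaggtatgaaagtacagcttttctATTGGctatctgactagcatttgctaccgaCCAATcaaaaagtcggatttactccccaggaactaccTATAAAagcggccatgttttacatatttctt
H2BC5: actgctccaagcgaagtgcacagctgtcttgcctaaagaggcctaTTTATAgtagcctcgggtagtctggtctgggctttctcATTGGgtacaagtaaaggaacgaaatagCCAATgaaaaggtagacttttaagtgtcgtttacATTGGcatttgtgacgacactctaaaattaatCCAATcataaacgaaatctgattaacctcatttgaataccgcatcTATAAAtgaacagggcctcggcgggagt
H2BC21: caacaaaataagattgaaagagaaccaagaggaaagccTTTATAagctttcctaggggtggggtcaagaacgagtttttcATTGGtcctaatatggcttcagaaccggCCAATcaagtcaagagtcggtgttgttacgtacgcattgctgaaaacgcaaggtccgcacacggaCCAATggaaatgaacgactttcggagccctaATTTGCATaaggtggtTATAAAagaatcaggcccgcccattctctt
H2AX: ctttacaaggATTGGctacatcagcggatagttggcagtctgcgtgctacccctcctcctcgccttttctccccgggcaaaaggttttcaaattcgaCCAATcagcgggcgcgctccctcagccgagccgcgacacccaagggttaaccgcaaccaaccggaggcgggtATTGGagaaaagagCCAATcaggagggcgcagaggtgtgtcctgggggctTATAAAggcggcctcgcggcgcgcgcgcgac

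The 245 bases between H2BC4 and H2AC6 held 1 octamer, 3 CCAAT boxes and 1 TATAAA. H2BC21 had 1 octamer in its 250 bases, and H2BC5 and H2AX had 0. Over the 8 genes, an octamer was found before 4 (H2BC4, H2AC6, H2BC21 and H3-3B). A CCAAT box was found before 8 and TATAAA before 7, all except H1-2. H2BC4 and H2AC6 share all of their sites, the octamer, the 3 CCAAT boxes and the TATAAA, so each is counted for both genes. The shared TATAAA lies near the H2AC6 end of the stretch. Among 35116 RefSeq promoters of the same 250-base length, 1.63% held an octamer, 32% a CCAAT box and 10.7% TATAAA. A match is a description of the letters and not of a bound factor.

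Markers of gastric epithelial cells were above the level filter of 6.06 applied before testing for 13 of 14 genes, all except the keratin KRT20. EPCAM, an epithelial adhesion molecule, averaged 13.8 on LPS and untreated arrays, and the keratin KRT18 averaged 14.6 on both. These were among the brightest of the list, and CLDN18 averaged 7.87 on LPS arrays and 7.91 on untreated arrays. Of the 13, 4 were higher and 3 lower on both LPS arrays. CDX2 differed by 0.23 and GATA6 by -0.22, and neither passed (limma adjusted p = 0.386 and 0.268). Of 8 leukocyte marker genes measured, 6 were above the filter too, and PTPRC, the pan-leukocyte phosphatase, and CD14 were below it. PTPRC lay at 5.51 and 5.50 on LPS arrays and at 5.56 and 5.55 on untreated arrays. LYZ, lysozyme, which gastric glands also make, had 12.60 and 12.59 on LPS arrays and 12.70 and 12.79 on untreated arrays. CD53, a leukocyte tetraspanin, had 8.56 and 8.87 on LPS arrays and 8.39 and 8.38 on untreated arrays, and CD4 and CD3E averaged 8.24 and 7.90 on LPS arrays and 8.21 and 7.90 on untreated arrays. None of the 6 above the filter passed in limma, with a smallest adjusted p of 0.332. The summed level of the 8 was 61.4 and 61.7 on LPS arrays and 61.5 and 61.3 on untreated arrays, so the groups overlapped. The part of these markers in the histone values was not tested. Some controls differed between the groups. The 24 probe sets of poly-A spike-ins, bacterial transcripts added before labelling, averaged 7.98 and 7.92 on LPS arrays and 8.60 and 8.25 on untreated arrays, and all 24 were lower on both LPS arrays. ACTB signal at the 3 prime end exceeded that at the 5 prime end by 0.39 and 0.63 on LPS arrays and by 0.64 and 0.86 on untreated arrays, while the same measure for GAPDH differed by 0.0093 between the groups. The part of these controls in the histone values was not tested.

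The comparison of LPS with untreated cells asked whether these histone transcripts differ 8 h after exposure. The lowest differences belonged to H2BC4 and H2AC6, the highest to a probe set of H2AX, and H2AZ1 and H1-2 lay near 0. In bulk RNA, fewer cells with a transcript and less of it per cell cannot be told apart. The genes were chosen by their level in untreated cells and their LPS minus untreated values on these same arrays, so the values are a description and no test is drawn from them. In the limma fit over all probe sets, 0 of the 12 passed at an adjusted p under 0.05, where 0.00785% of 38229 probe sets did, and before adjustment 3 were lower and 1 higher at p under 0.05, where 8.02% and 3.69% of all were. Both LPS arrays lay below both untreated arrays for 4 of the 12 and above them for 2. Over all probe sets tested, 24.2% lay below in this way and 19.1% above. The median difference of the 12 was 0.0040, against -0.0039 for all probe sets tested. All 12 were above the level filter.

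**Figure D1:**
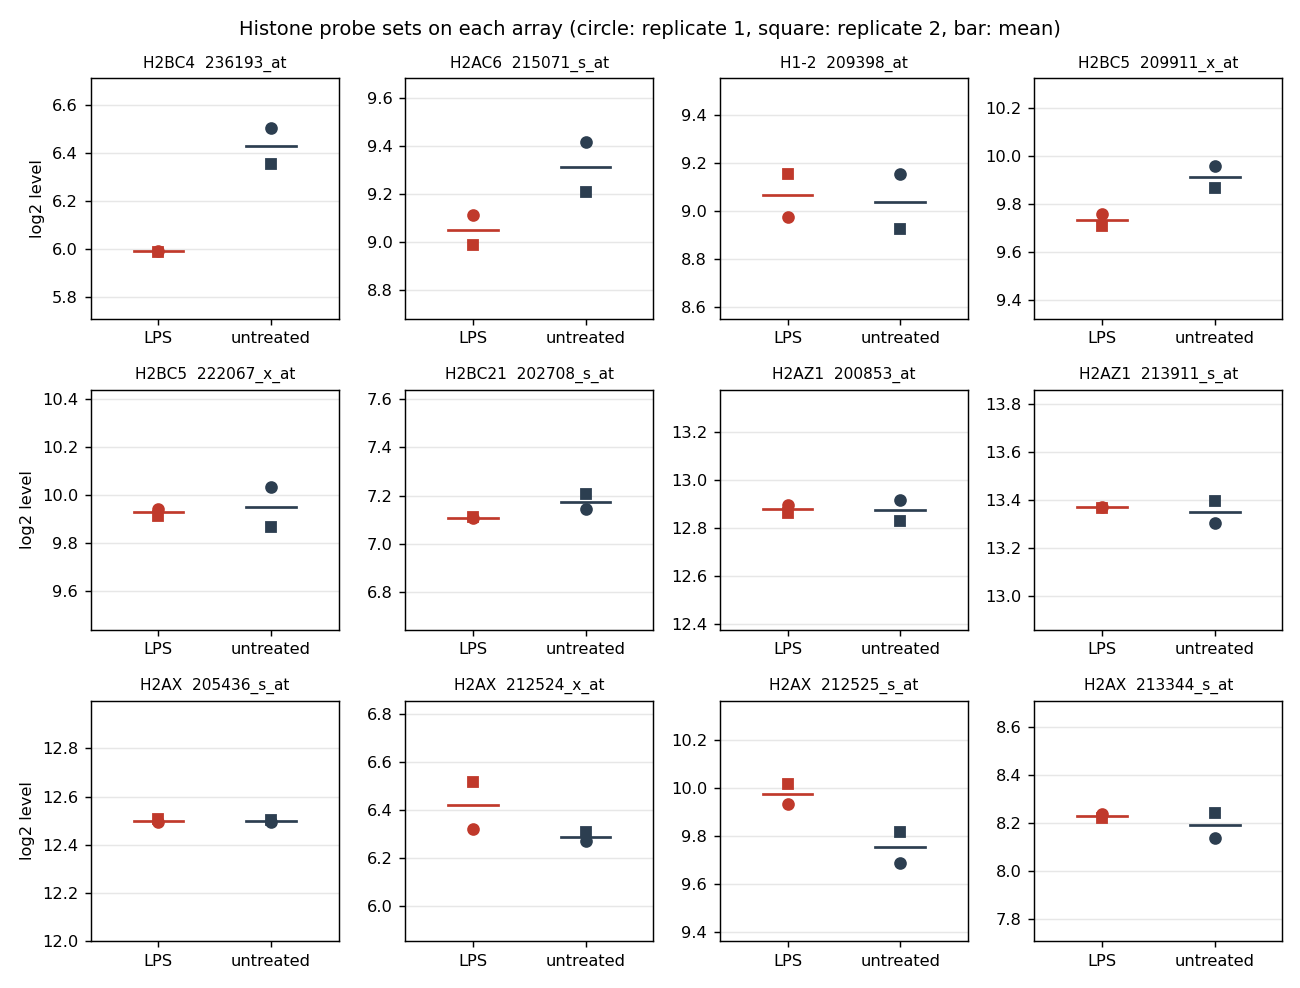
Log2 level (y axis, each panel spanning 1 log2 unit) of the 12 histone probe sets on LPS and untreated arrays (x axis), with points for the arrays and a bar for the mean of 2. The H2BC4 panel shows LPS arrays at 5.99 and 5.99 below untreated arrays at 6.50 and 6.36, and the panels of H2AZ1 and of H2AX 205436_s_at show groups that overlap.

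Among the core histone genes of the clusters, H2BC4 encodes a replication-dependent H2B. Its probe set, 236193_at, lay at 5.99 and 5.99 on LPS arrays and at 6.50 and 6.36 on untreated arrays. Both LPS values were below both untreated values, and the LPS arrays were closer to each other than the untreated arrays. The difference was -0.44, 0.737-fold, with a 95% interval of -0.65 to -0.23. The level was low. The LPS mean of 5.99 was under the filter level of 6.06 and the untreated mean of 6.43 was above it, so this probe set was tested only because of its untreated values. Of the 38229 probe sets tested, 263 had a difference at or under that of H2BC4. H2BC4 was chosen with this difference known, so its rank is a description and no support.

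H2AC6, which encodes an H2A protein, is the neighbour across the 245 bases printed above. Its probe set 215071_s_at had 9.12 and 8.99 on LPS arrays, against 9.42 and 9.21 on untreated arrays. The groups did not overlap, and untreated replicate 1 was the highest array here as for H2BC4. The difference was -0.26 (0.834-fold, 95% interval -0.49 to -0.03), and it was -0.16 without untreated replicate 1. The median of all probe sets in the same decile of level was -0.04.

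H2BC5, a further H2B gene of chromosome 6, was read by 2 probe sets that did not give the same picture. Probe set 209911_x_at had 9.76 and 9.71 on LPS arrays and 9.96 and 9.87 on untreated arrays. It differed by -0.18 (95% interval -0.35 to -0.0065), with both LPS arrays lower. Probe set 222067_x_at had 9.94 and 9.92 on LPS arrays, inside the range of 10.04 and 9.87 on untreated arrays, and differed by -0.02. Both carry the ending _x_at, which marks probes that can bind transcripts of more than 1 gene. H2B coding sequences are nearly alike between genes.

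H2BC21 is an H2B gene on chromosome 1. It had 7.10 and 7.11 on LPS arrays and 7.14 and 7.21 on untreated arrays. Both LPS arrays were lower, by a mean of -0.07 (95% interval -0.25 to 0.11). The value was -0.04 without untreated replicate 2.

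H1-2 encodes a linker histone, which binds DNA where it enters and leaves the nucleosome. Its levels were 8.98 and 9.15 on LPS arrays and 9.16 and 8.92 on untreated arrays. The groups overlapped, and the difference of 0.03 (95% interval -0.22 to 0.27) was smaller than the gap of 0.231 between the untreated arrays. It ranged from -0.09 to 0.14 when 1 array was left out.

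Among the replication-independent variants, H2AZ1 encodes H2A.Z, a variant found at promoters and regulatory regions. Probe set 213911_s_at had 13.37 and 13.37 on LPS arrays and 13.30 and 13.39 on untreated arrays. Probe set 200853_at had 12.90 and 12.87 on LPS arrays and 12.92 and 12.83 on untreated arrays. On both probe sets the LPS values lay between the untreated ones. The differences were 0.02 (95% interval -0.08 to 0.12) and 0.0060 (-0.10 to 0.11).

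H2AX encodes the H2A variant that is phosphorylated around DNA double-strand breaks, and its mRNA is known in both a stem-loop and a polyadenylated form. Its 4 probe sets gave different values. On the brightest, 205436_s_at, LPS arrays had 12.49 and 12.51 and untreated arrays had 12.49 and 12.50. That difference was 0.0021, with a 95% interval of -0.10 to 0.10. Probe set 212525_s_at had 9.93 and 10.02 on LPS arrays and 9.69 and 9.82 on untreated arrays. Both LPS arrays were higher, by 0.22 (1.17-fold, 95% interval 0.04 to 0.41), the highest difference of the 12. Probe set 212524_x_at had 6.32 and 6.52 on LPS arrays and 6.27 and 6.31 on untreated arrays, also without overlap. Its difference of 0.13 was 0.03 without LPS replicate 2 and 0.23 without LPS replicate 1. Probe set 213344_s_at overlapped between the groups and differed by 0.04. The mean over the 4 was 0.098. Which H2AX transcript form each probe set reads was not tested.

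**Figure D2:**
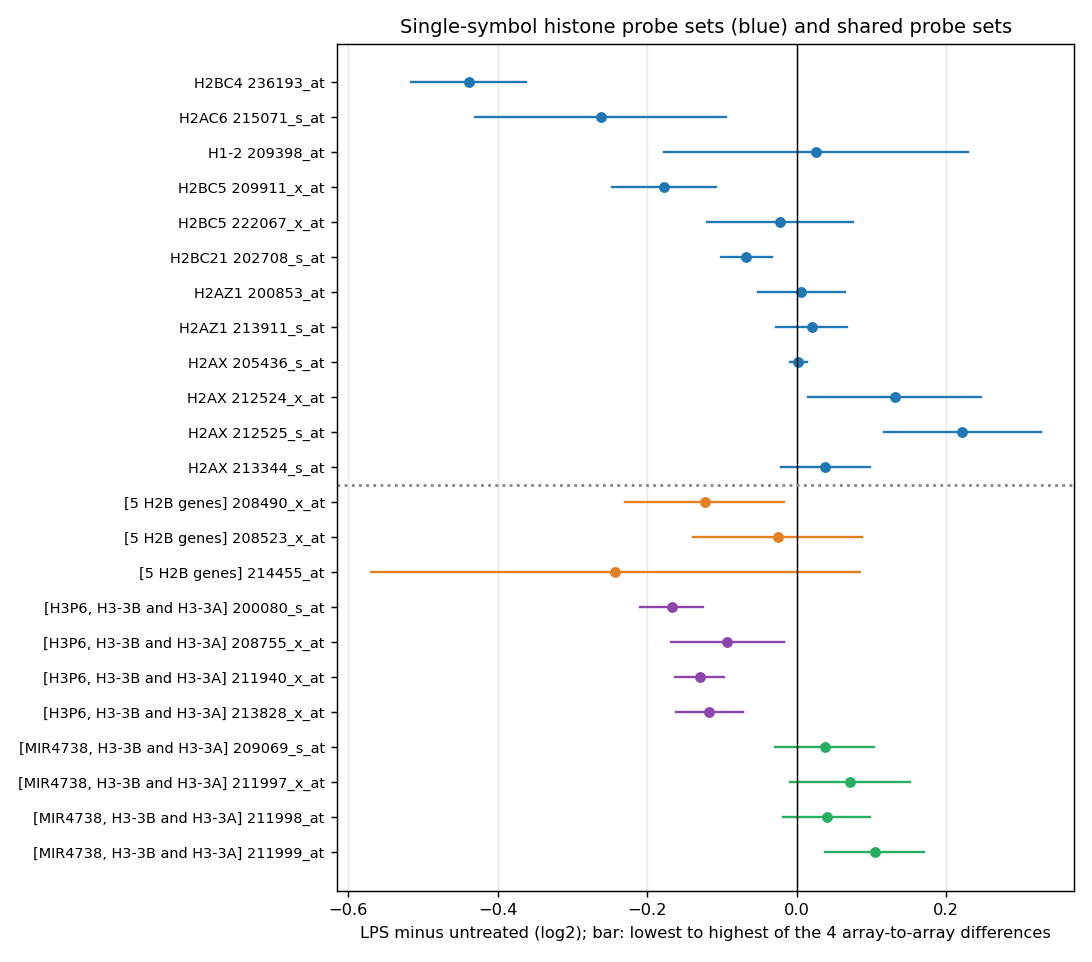
LPS minus untreated (log2, x axis) for the 12 single-symbol probe sets (blue, above the dotted line) and the 11 probe sets shared with other genes (below it), with a bar from the lowest to the highest of the 4 array-to-array differences. H2BC4 is lowest at -0.44 and H2AX 212525_s_at highest at 0.22, and the 2 groups of H3.3 probe sets lie on opposite sides of 0.

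H3-3B encodes histone H3.3, the replacement H3 placed outside replication, and H3-3A encodes the same protein. The 8 probe sets that carry H3-3B list H3-3A too, so by this annotation they give no value to either gene alone. Which of these genes each probe set mainly reads was not tested. A probe set of H3-3A alone, 213826_s_at, had 6.97 and 7.27 on LPS arrays and 7.09 and 7.02 on untreated arrays. Its difference was 0.06, with overlapping groups. The 8 shared probe sets fell into sets of 4 by the remaining symbol. In the set that also lists the pseudogene H3P6, all 4 were lower on both LPS arrays, by -0.17 to -0.09 with a median of -0.12, where 24.2% of all probe sets were lower on both. In the set that also lists the microRNA gene MIR4738, the 4 differences were 0.04 to 0.10 with a median of 0.06, and 1 of them was higher on both LPS arrays, where 19.1% of all were. Probe sets that list the same genes read shared transcripts, so the 4 of a set are not separate observations.

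Single values show the size of this split. The H3P6-listing probe set 200080_s_at had 13.34 and 13.36 on LPS arrays and 13.49 and 13.55 on untreated arrays. The MIR4738-listing probe set 211999_at had 13.003 and 13.042 on LPS arrays and 12.966 and 12.871 on untreated arrays. In limma 0 of the 8 passed over all probe sets, with smallest adjusted p-values of 0.231 and 0.435 in the sets. The median stayed between -0.15 and -0.09 in the H3P6 set and between 0.04 and 0.09 in the MIR4738 set under the 11 alternatives run. The difference between the sets was not tested.

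H2BC4 also appears on 3 probe sets that list 5 H2B genes together (H2BC4, H2BC6, H2BC7, H2BC8 and H2BC10). They differed by -0.24 to -0.03, and 1 of the 3 was lower on both LPS arrays. Probe set 214455_at had 6.52 and 6.67 on LPS arrays and 7.09 and 6.59 on untreated arrays, so its difference of -0.24 came with overlapping groups. The median of the 3 was -0.12, and it was 0.011 without untreated replicate 1. In limma 0 passed, with a smallest adjusted p of 0.587.

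The other histone genes on the array were set beside the 7. Of 64 other replication-dependent genes listed, 37 had a probe set of their own and 19 of these were above the level filter. In limma 0 of the 19 passed over all probe sets, where 0.0185% of 16252 genes did. Before adjustment 0 were higher and 0 lower at p under 0.05, where 3.72% of all genes were higher and 7.91% lower. The median difference of the 19 was 0.00054, against -0.0047 for all 16252 genes. By the same measure the 7, chosen by their values here, had a median of -0.02, which was 0.03 after quantile normalization. The values did not pass for H2AC17 (-0.16), H2AC14 (-0.14) and H4C11 (0.15), which had the smallest p-values (limma adjusted p = 0.481 to 0.490). Among the genes under the filter, not tested, H2AC16 (-0.31), H2BC11 (-0.28), H4C13 (-0.19) and H2BC14 (-0.10) were lower on both LPS arrays. H2BC1 (0.17), H2BC17 (0.12) and H3C2 (0.07) were higher on both, and the rest overlapped. Over all probe sets tested, 24.2% were lower on both and 19.1% higher. H2BC12, an H2B gene with a bright probe set, had 12.124 and 11.997 on LPS arrays and 12.206 and 12.102 on untreated arrays, a difference of -0.09.

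Of 21 other variants, 12 were measured, all above the filter, and 0 passed in limma, and before adjustment 0 were higher and 1 lower at p under 0.05. The 1 lower was H1-8, an oocyte linker histone, at -0.21 (limma adjusted p = 0.392). H2AP differed by 0.17 and the linker variant H1-10 by 0.17, and neither passed (limma adjusted p = 0.493 and 0.551). MACROH2A1, which encodes macroH2A, differed by 0.0095, and H2AZ2, which encodes a close relative of H2A.Z, by -0.0059. The median of these 12 was 0.01.

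**Figure D3:**
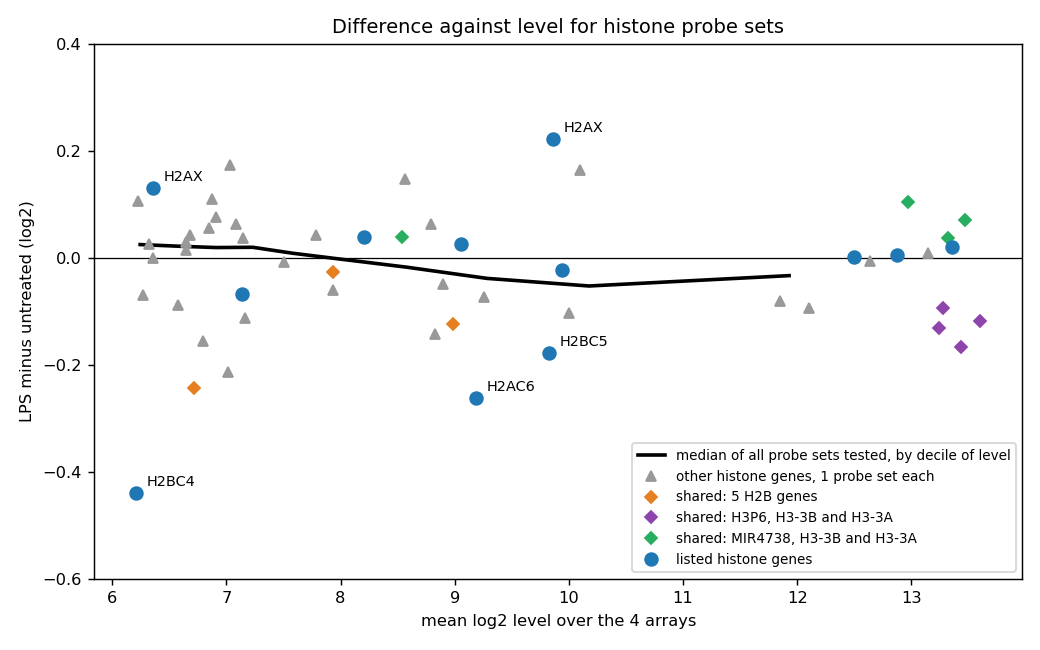
LPS minus untreated (log2, y axis) against the mean log2 level over the 4 arrays (x axis) for the listed histone genes (blue), shared probe sets (diamonds) and 31 other histone genes (triangles), with the median of all probe sets tested by decile of level as a line. The line lies at 0.02 in the lowest decile and at -0.05 in decile 9, and H2BC4 stands lowest at a level of 6.21.

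The machinery that makes histone mRNA was measured on the same arrays, and the shares of 3.72% of all genes higher and 7.91% lower before adjustment are the background of each list that follows. Of 22 genes for histone gene transcription and 3 prime end processing, 21 were measured above the filter and 0 passed in limma, and before adjustment 1 was higher and 2 lower at p under 0.05. UPF1, a helicase that takes part in histone mRNA decay, had 10.33 and 10.59 on LPS arrays and 10.15 and 10.23 on untreated arrays (0.27, limma adjusted p = 0.366), against 0.07 on its other probe set. LSM11, a protein of the U7 particle that directs stem-loop cleavage, differed by -0.28 (limma adjusted p = 0.368, other probe sets -0.17 to 0.05). CPSF3, the endonuclease that makes the cut, differed by -0.21 (limma adjusted p = 0.410). The list median was -0.04, and it was 0.0045 after quantile normalization and 0.0055 without untreated replicate 1.

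Histone chaperones carry histones to DNA. All 29 listed were measured above the filter and 0 passed in limma, and before adjustment 1 was higher and 4 lower at p under 0.05. YEATS4, a subunit of the complexes that deposit H2A.Z, had 10.18 and 10.04 on LPS arrays and 10.36 and 10.36 on untreated arrays (-0.25, limma adjusted p = 0.304). ATRX, which deposits H3.3 together with DAXX, differed by -0.24 (limma adjusted p = 0.336, other probe sets -0.73 to -0.09). UBN1, a partner of the H3.3 chaperone HIRA, differed by -0.20 (limma adjusted p = 0.380), against -0.0026 on its other probe set. The list median was -0.03, and it was 0.02 after quantile normalization, after cyclic loess or without untreated replicate 1.

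Replication genes bear on the phase in which most histone mRNA is made. Of 22 DNA replication genes, all measured above the filter, 0 passed in limma, and before adjustment 0 were higher and 1 lower at p under 0.05. The 1 lower was cyclin A2, CCNA2, at -0.16 (limma adjusted p = 0.325), and its other probe set differed by 0.17. GMNN, the inhibitor of replication licensing, differed by -0.12 and the helicase subunit MCM7 by 0.11 (limma adjusted p = 0.427 and 0.433). The list median was -0.01, 0.03 with quantile or loess scaling, and 0.0027 without untreated replicate 1.

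Of 15 genes for H2AX phosphorylation and signalling at DNA breaks, 0 passed the threshold in limma. Before adjustment 0 were higher and 4 lower at p under 0.05, where 3.72% and 7.91% of all genes were. MRE11, a nuclease of the break-sensing complex, had 10.32 and 10.25 on LPS arrays and 10.81 and 10.57 on untreated arrays (-0.40, limma adjusted p = 0.238). Its other probe sets differed by -0.59 to 0.07. BRCA1, a repair ubiquitin ligase, differed by -0.31 (limma adjusted p = 0.244, other probe set -0.11) and the kinase ATR by -0.26 (0.308, other probe sets -0.12 to 0.21). The list median was -0.06, and -0.01 after quantile normalization.

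H2BC4 was compared with 15546 other genes for the likeness of its pattern over the 4 arrays, as the Euclidean distance between values centred on each probe set's mean. The nearest were AGO4 (distance 0.013), an Argonaute protein, TMT1A (0.023), SBNO1 (0.036), NAV1 (0.042) and the autophagy receptor NBR1 (0.048). AGO4 had 7.93 and 7.91 on LPS arrays and 8.44 and 8.28 on untreated arrays. These 5 brightest probe sets differed by -0.44 to -0.40, which follows from choosing them by likeness to H2BC4 on the same arrays. None of the 5 passed in limma (adjusted p = 0.164 to 0.192). Other probe sets of the same genes, above the filter or not, differed by -0.30 to 0.04 for NBR1, -0.30 to 0.11 for TMT1A, -0.21 to 0.03 for SBNO1, -0.11 to 0.09 for AGO4 and -0.07 to 0.18 for NAV1. Each of the 5 genes had a probe set with a difference above 0. H2AC6 lay at a distance of 0.201, with 401 of these genes nearer to H2BC4. For the other measured members, 4977 (H2BC21) to 9340 (H2AZ1) genes were nearer. The members were chosen with their values on these arrays known, so these ranks are a description.

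**Figure D4:**
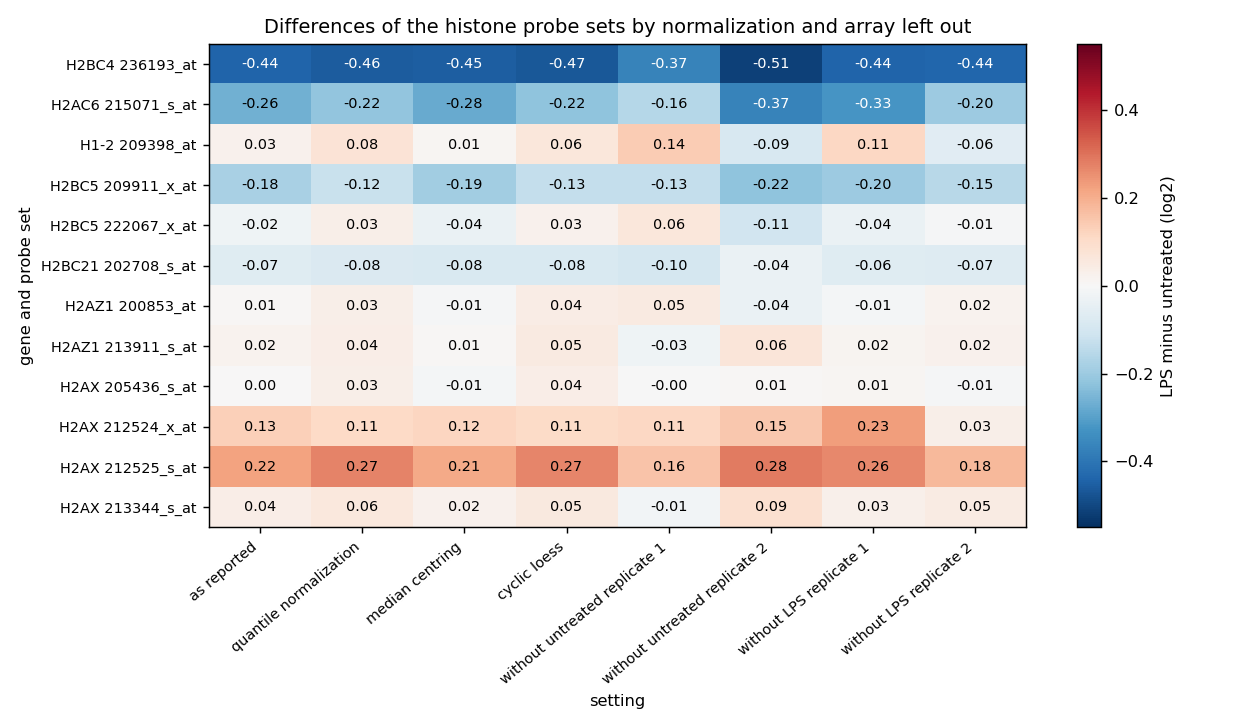
LPS minus untreated (log2, colour and printed value) of the 12 histone probe sets (rows) as deposited, under 3 further normalizations and with each array left out (columns). H2BC4 stays between -0.51 and -0.37 and H2AC6 between -0.37 and -0.16, and H2AZ1 and H1-2 lie on both sides of 0.

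Leaving out arrays and rescaling them separated the members whose sign held from those whose sign did not. Of the 12, 6 probe sets had the same sign under every alternative that kept them. These were H2BC4, H2AC6, H2BC5 209911_x_at and H2BC21, all lower, and H2AX 212524_x_at and 212525_s_at, both higher. The other 6, of H1-2, H2BC5, H2AZ1 and H2AX, took both signs. The 6 that kept their sign are the same probe sets whose groups did not overlap. The sign of a value whose groups do not overlap cannot turn when 1 array is left out, so that part is no added support. Rescaling used the same arrays and is no separate observation.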

How the data were processed

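Expression was measured on 4 Affymetrix arrays, 2 of LPS cells and 2 of untreated cells, grouped by their titles. The deposited table holds 54675 probe sets, and its values are read as log2 levels from their range. MAS5 and RMA are named, per the submitters' processing notes, and which of these made the values is not given in the sources used here. Array medians were 7.004 to 7.034, so the deposited log2 values lay close to a common scale. Scaling before deposit would give close medians and hide any common shift of the transcripts, and whether it was done was not tested. No further normalization was applied.

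Tests covered 38229 probe sets, after removing 62 controls and those whose mean over the arrays was below the 30 percentile (6.06). R 4.3.3 and limma 3.58.1 (lmFit, eBayes with trend, no block) were used, with Benjamini-Hochberg adjustment over all probe sets tested, two-sided, at 0.05. The moderated test had 7.06 degrees of freedom. Intervals are 95% intervals of the fitted difference. The fit was tested on simulated data.

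Genes came from the platform annotation, and for the 7 measured members the Entrez identifiers matched RefSeq (GRCh38.p14). Promoter sequences came from RefSeq, GRCh38.p14, where all 8 genes had an entry, and H2BC5 had 2 starts, the first used. The build of the values is not given in the sources used here.

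The members and lists were chosen with earlier results of these data known. All members were named. In other lists each gene stood for its brightest probe set, the 3 with the smallest p were named where fewer than 3 passed, and among other histone genes also the 3 brightest and the 3 with the largest difference. Marker lists of gastric epithelial, leukocyte, and fibroblast and endothelial cells gave 0 members past the limma threshold, of 13, 6 and 9 above the filter. Before adjustment 1, 1 and 1 were higher and 1, 1 and 0 lower at p under 0.05. The smallest p belonged to GATA6, CDX2 and KRT8 in the gastric list and to LYZ, CD53 and ITGAM in the leukocyte list. In the fibroblast and endothelial list it belonged to VIM (0.24), PDGFRB (0.18) and DCN (0.20), and the list median was 0.09. Alternatives changed the filter (none, or the 50 percentile), the scaling (cyclic loess, quantile or median), the trend in eBayes (off), the block (replicate number) and the choice of probe sets (averaged by gene, or without _x_at and _s_at types), and each array was left out once. The lone array of a group was then assumed to vary like the other group.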

Additional observations from a re-analysis of the deposited data

How the results depend on the processing

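The limma count of 3 probe sets past the threshold (3 higher, 0 lower) became 5 with a filter at the 50 percentile, 8 after quantile normalization or cyclic loess (4 higher, 4 lower) and 17 after median centring (6 higher, 11 lower). It was 2 to 11 with 1 array left out, the 11 (5 higher, 6 lower) without untreated replicate 1. The cause was not tested. Member probe sets past the threshold stayed at 0 under all 11 alternatives, and so did other listed genes above the level filter. Listed genes under that filter were not counted in the fit without a filter. The median of the 12 histone probe sets, 0.0040, was 0.030 after quantile normalization, 0.039 after cyclic loess and -0.037 to 0.00039 with 1 array left out. The histone genes with several probe sets gave by their mean -0.10 for H2BC5, 0.01 for H2AZ1 and 0.098 for H2AX, against -0.02, 0.02 and 0.0021 on the brightest. Only 3 of the 12 probe sets, of H2BC4, H1-2 and H2AZ1, end in neither _x_at nor _s_at. The filter at the 50 percentile removed H2BC4 and H2AX 212524_x_at. The replicate numbers are not stated to mark the experiments. Deviations of the arrays numbered 1 from their group means correlated at r = 0.214 over 38229 probe sets, and the fit with a replicate block again called 3, so the pairing changed no count.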
